A study of Homo sapiens with 23 samples.

Results

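The 29 regions described here are 5 Mb windows of the human genome in which chromatin loops were listed at T30, after progestin, and none at T0. Chromosomes 1 to 22 and X (hg38) were cut into 619 windows from position 0, and each loop was placed by the lower of its 2 ends. Members were chosen by these listed loop counts: a window was taken when it held 0 loops in the T0 list and 3 or more in the T30 list. This gave 29 windows, 4.68% of all, with 259 of the 9587 T30 loops on these chromosomes. The mirrored rule, 0 loops in T30 and 3 or more in T0, gave 7 windows, 1.13% of all, with 29 T0 loops. These counts follow from the rule, carry no test, and nothing is read from them.

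The loops came from HiChIP of the progesterone receptor (PR) in T47D, an established luminal breast cancer line that carries the receptor. The T30 library is labelled PR5020, read here as PR with the synthetic progestin R5020, and the T0 library is labelled PR with no agent. The shared protocol gives culture in charcoal-treated serum, then serum-free medium, then R5020 or progesterone, but the labels do not give the dose used for these libraries or the unit of the 30 in T30. Each condition is 1 library and 1 loop list, so no difference between them has a replicate check, no test between T30 and T0 was possible, and the number of cells or reads behind each list is unknown.

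HiChIP joins DNA ends that lie near each other in the nucleus, enriches the joined fragments with an antibody, and counts read pairs that link 2 distant bins. PR is a nuclear receptor that binds hormone response elements, inverted repeats of a short motif, and acts largely from enhancers far from the genes it regulates. Centromeres consist of long arrays of alpha satellite DNA. They are flanked by segmental duplications, where genes are sparse and pseudogenes common.

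A loop here is a pair of 5 kb bins, and its contacts are the read pairs that join them. The T30 list held 9591 loops, 8 or more contacts each, and the T0 list 7075 loops, 7 or more contacts each. Their contacts summed to 135538 in T30 and 127457 in T0. Listed loops had q-values under 0.05 in both lists. The shortest listed span was 20 kb in T30 and 10 kb in T0, so the listed ranges were not alike. The lists differed in the length of their loops, since 31.5% of T30 loops and 5.09% of T0 loops spanned 20 to 50 kb, with medians of 80 kb in T30 and 190 kb in T0. The 6 luminal markers GATA3, FOXA1, KRT8, KRT18, ELF3 and SPDEF all had a loop in T30, and all but SPDEF had one in T0. Of a longer list of 22 luminal genes, 13 of 20 outside member windows had a T30 loop, and 0 of 2 inside. Of all protein-coding genes outside member windows, 23.7% had one. Loops do not measure expression, so these counts check the cell type only in part.

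Promoters found in bins of member loops show what sequence lies at these ends. The promoters of 5 genes are printed, from RefSeq on GRCh38.p14, each from 250 bases before a listed start site to 50 bases after it. For CORO6 and CTBP2, both on the minus strand, that start site lies inside the gene's annotated extent. The sites are at 29618114 and 125006018, and the extents reach up to 29622912 and 125162463. EGFR, RET and CORO6 were chosen for their place in the results below, CTBP2 and FREM2 because they hold the core of a hormone response element. Capitals mark GC boxes (GGGCGG on either strand) and that core (ACANNNTGT).
EGFR: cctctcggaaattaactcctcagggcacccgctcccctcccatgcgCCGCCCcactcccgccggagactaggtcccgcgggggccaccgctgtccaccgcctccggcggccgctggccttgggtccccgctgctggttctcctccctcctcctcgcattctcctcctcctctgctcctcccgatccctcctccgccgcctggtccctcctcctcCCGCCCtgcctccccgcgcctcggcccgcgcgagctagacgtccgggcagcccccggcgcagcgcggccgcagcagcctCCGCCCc
RET: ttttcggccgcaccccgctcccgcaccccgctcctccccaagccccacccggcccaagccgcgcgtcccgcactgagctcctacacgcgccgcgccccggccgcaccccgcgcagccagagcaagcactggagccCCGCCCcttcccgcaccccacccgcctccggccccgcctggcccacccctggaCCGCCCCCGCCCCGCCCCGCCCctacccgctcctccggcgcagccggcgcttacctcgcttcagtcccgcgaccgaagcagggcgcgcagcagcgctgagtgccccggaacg
CORO6: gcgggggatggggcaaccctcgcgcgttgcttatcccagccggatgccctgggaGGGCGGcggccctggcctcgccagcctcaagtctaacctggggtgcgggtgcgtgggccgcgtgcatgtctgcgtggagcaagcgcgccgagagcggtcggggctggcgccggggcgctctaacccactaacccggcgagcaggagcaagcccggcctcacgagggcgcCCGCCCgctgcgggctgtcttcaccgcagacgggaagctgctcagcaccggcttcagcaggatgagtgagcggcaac
CTBP2: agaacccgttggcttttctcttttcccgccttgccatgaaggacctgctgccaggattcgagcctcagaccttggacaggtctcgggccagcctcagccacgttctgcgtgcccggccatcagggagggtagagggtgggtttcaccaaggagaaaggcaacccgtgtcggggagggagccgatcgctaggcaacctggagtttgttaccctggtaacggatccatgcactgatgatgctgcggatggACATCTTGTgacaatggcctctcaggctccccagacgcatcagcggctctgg
FREM2: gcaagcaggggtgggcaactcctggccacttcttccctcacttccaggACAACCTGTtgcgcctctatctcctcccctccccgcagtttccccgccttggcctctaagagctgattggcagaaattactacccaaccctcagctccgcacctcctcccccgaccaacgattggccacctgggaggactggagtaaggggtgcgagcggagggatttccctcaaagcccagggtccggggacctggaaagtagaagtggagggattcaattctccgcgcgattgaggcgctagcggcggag

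The EGFR promoter lies at chr7:55018767-55019066 on the plus strand and RET at chr10:43076819-43077118 on the plus strand. CORO6 lies at chr17:29618065-29618364 on the minus strand, CTBP2 at chr10:125005969-125006268 on the minus strand and FREM2 at chr13:38686827-38687126 on the plus strand. EGFR holds 3 GC boxes, RET 5 and CORO6 2, whereas CTBP2 and FREM2 hold none and have 1 core each. In the promoter table, 54 start sites of 43 protein-coding genes lay in bins of member loops. The core was found in 5 of these 54 promoters (9.26%) and in 879 of 22156 promoters of protein-coding genes (3.97%). The full site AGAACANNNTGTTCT was in 0 of the 54 and 0 of the 22156. The repeat unit AGAACA, which overlaps the core, was in 2 of 54 (3.70%) and in 11.7% of all. GC boxes were in 39 of 54 (72.2%) and 56.3% of all. These matches are descriptions of letters, not of binding.

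The loops were spread unevenly over the 29 windows. Of these, 12 windows held 3 loops, the least the rule allows, and 5 held 4. Another 5 held 6. The remaining windows held 7, 8, 11, 12, 21, 49 and 65, so the windows of PLAT on chromosome 8 and KSR1 on chromosome 17 carried 114 of the 259 loops. Just outside the rule, 10 windows had 2 T30 loops and 0 in T0, and 22 had 3 or more in T30 and 1 in T0. A further 86 windows held no loop in either list.

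**Figure D1:**
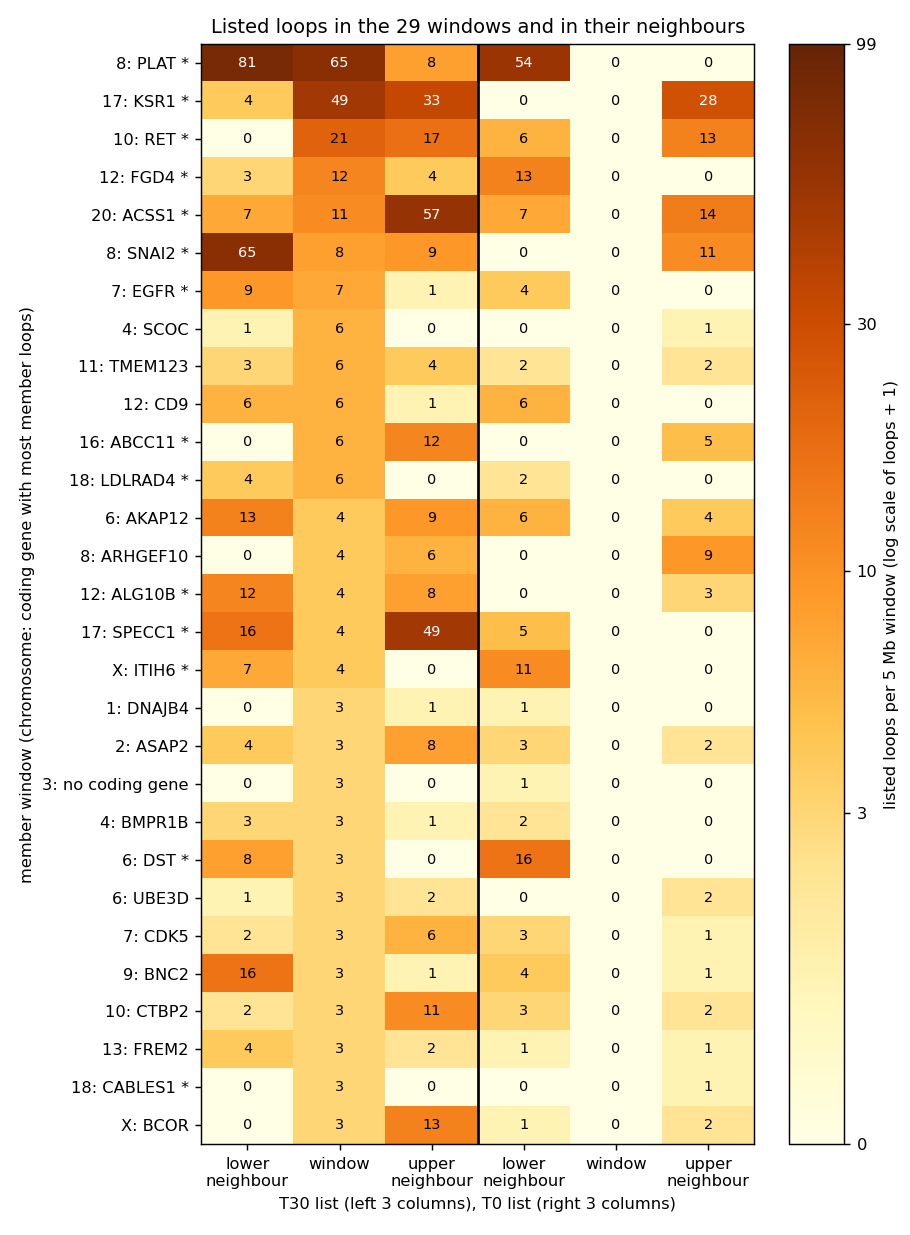
Listed loops in each of the 29 windows and in the 5 Mb windows on either side, T30 in the left 3 columns and T0 in the right 3; each row gives the chromosome and the protein-coding gene with most member loops, and an asterisk marks windows within 4 Mb of the longest gene-free stretch of the chromosome. The middle T0 column is 0 by the rule; the windows of PLAT and KSR1 hold 65 and 49 T30 loops, and the T0 list holds 54 and 28 loops in one neighbour of each.

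Beside each of the 2 largest windows, 1 neighbour held many T0 loops, and the other, itself a member, held 0. On chromosome 8, the window at 40 to 45 Mb had 65 loops in T30 and 0 in T0, while the window below it had 81 in T30 and 54 in T0. On chromosome 17, the window at 25 to 30 Mb had 49 in T30 and 0 in T0, and the window above it 33 in T30 and 28 in T0. The chromosome 8 window was also reached by 1 T0 loop that started in the window below and ended at 40030001 to 40035000, with 17 contacts. It is the only member window that a T0 loop touched, so "no loop in T0" holds for both ends in the other 28.

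No centromere or repeat table was used here, so the longest stretch without any RefSeq gene served as a landmark on each chromosome. On most chromosomes this stretch is the centromere and its flanks. On chromosomes 13, 14, 15, 21 and 22 it lies wholly or largely on the short arm. Of the 29 windows, 14 lay within 4 Mb of such a stretch, among 87 windows of the genome that do. They held 203 of the 259 member loops (78.4%). Member windows were thus 16.1% of the windows near a stretch and 2.82% of the 532 farther away. Among windows with 3 or more T30 loops, 14 of 37 near a stretch and 15 of 362 farther away were empty in T0. The rule sets membership, and the stretches and the 4 Mb zone were chosen after the lists had been seen. These counts and shares are therefore a description only and test nothing.

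Over all windows, T30 loops per T0 loop were most numerous within 4 Mb of a stretch and fewer beyond it. From 0 to 4 Mb outside the stretches the T30 list held 71, 92, 92 and 98 loops in successive 1 Mb steps, and the T0 list 0, 5, 9 and 21. In the next step, 4 to 5 Mb, T30 had 99 and T0 had 92. Summed, the 4 Mb beside the stretches held 353 loops on 20 chromosomes in T30 and 35 loops on 8 chromosomes in T0, or 10.1 T30 loops per T0 loop. That ratio was 1.16 at 4 to 8 Mb, 1.10 at 8 to 12 Mb and 1.33 beyond. Inside or across the stretches T30 listed 13 loops and T0 listed 0. Member windows supply 188 of those 353 loops and 12 of those 13, and T0 is 0 in them by the rule. Outside member windows, the 4 Mb beside the stretches held 165 T30 loops, in 1 Mb steps 17, 7, 62 and 79, and the same 35 T0 loops, or 4.71 T30 loops per T0 loop. The gap between the lists was not confined to the stretches. Under 5 Mb from a chromosome end there were 1854 of 9587 T30 loops and 845 of 7075 T0 loops. At 5 to 10 Mb from an end there were 824 in T30 and 624 in T0.

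Each side of each stretch can be taken alone. On 41 sides with loops in both lists, the nearest T0 loop was farther from the stretch than the nearest T30 loop on 36, nearer on 4 and equal on 1. Of these sides, 15 have a member window within 4 Mb, where the rule itself sets the T0 count to 0, and all 15 are among the 36. On the 26 sides without one, the nearest T0 loop was farther on 21, nearer on 4 and equal on 1. Their median distance was 2.95 Mb in T30 and 4.80 Mb in T0, and a loop lay within 2 Mb on 8 of them in T30 and on 1 in T0. On chromosome 10 the order was turned round on the lower side, where the nearest loop was 3.99 Mb away in T30 and 1.83 Mb in T0. The window there, 35 to 40 Mb, is 1 of the 7 mirrored windows and holds 6 T0 loops.

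**Figure D2:**
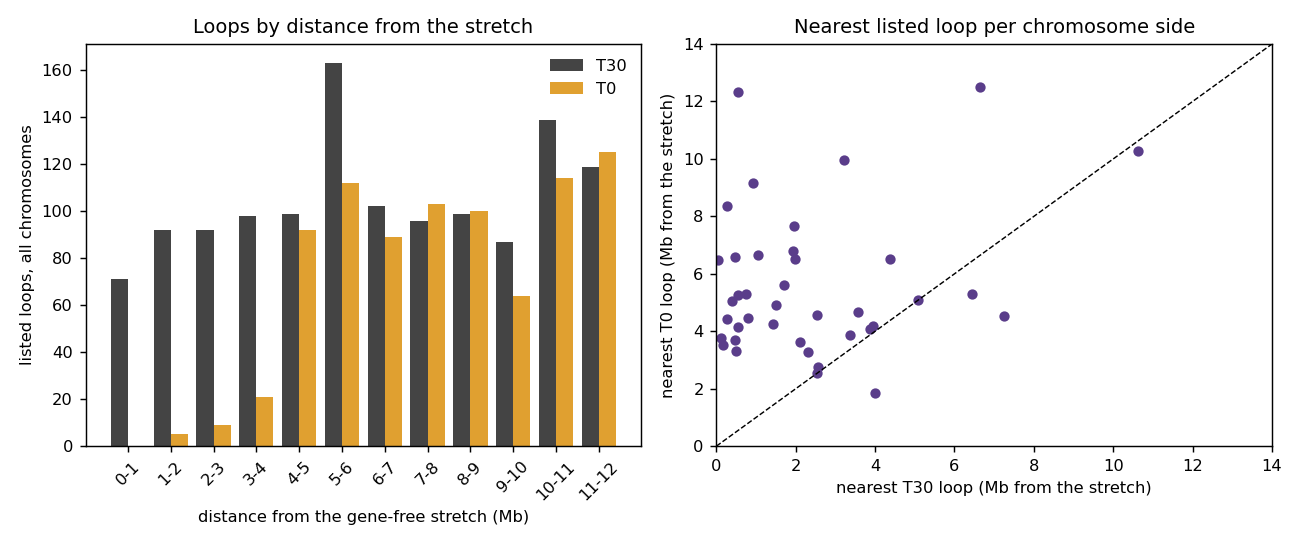
Left, listed loops of all chromosomes in 1 Mb steps outside the longest gene-free stretch, T30 beside T0. The T0 counts are far below those of T30 under 4 Mb and nearer to them from 4 Mb on. At 5 to 6 Mb there are 163 in T30 and 112 in T0. Right, distance of the nearest T30 loop against that of the nearest T0 loop for each side of a stretch, with the line of equal distance; 2 sides with T0 distances of 18.1 and 44.9 Mb lie outside the axes, and 36 of 41 sides lie above the line, 15 of which have a member window within 4 Mb.

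Around 18 stretches that no T0 loop entered and that had T0 loops on both sides, the span free of T0 loops measured 8.58 to 59.6 Mb, with a median of 14.4 Mb. They contained 360 T30 loops, of which 205 belong to member windows and were picked by the rule. The other 155 lay in 15 of the 18 spans. Chromosome 20 had 63 T30 loops in its 11.8 Mb span, 52 of them outside member windows, and chromosome 17 had 75 in 13.8 Mb, 22 of them outside. All 72 in the 11.8 Mb span of chromosome 8 were in member windows. The same count turned round found 14 spans free of T30 loops, and 1 of these, on chromosome 10, held T0 loops, 6 in all. A span without loops is empty by construction. Whether a filter, a blacklist or a mapping step left such regions out of 1 list was not tested, and no source used here gives the steps that made each list.

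The chromosome 8 windows lie on either side of the centromere. The window at 40 to 45 Mb reaches into the gene-free stretch, which starts at 43540928. Its gene with most loops was PLAT, which encodes tissue plasminogen activator, the protease that turns plasminogen into plasmin. PLAT had 9 T30 loops to 8 partner bins, 113 contacts in all, and 0 in T0. Here and below, 0 in T0 for a gene in a member window follows from the rule, apart from loops that reach the gene from another window. AP3M2, a subunit of the AP-3 vesicle adaptor, and IKBKB, the kinase that releases NF-κB by marking its inhibitor for decay, had 7 loops each in T30 and 0 in T0. Contacts per loop were low for both, at most 12. GPAT4, an enzyme of glycerolipid synthesis, had 6 loops of up to 24 contacts.

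KAT6A, a histone acetyltransferase, had 5 loops of at most 12 contacts in the same window. ANK1, the ankyrin of red cells, had 4 loops, the strongest with 24 contacts inside the gene. The window's strongest loops touched no protein-coding gene. Bins at 40345001 and 40405001, which hold no RefSeq gene, had 7 partners each and were joined to one another by 30 contacts. The bin at 40345001 was also joined to one at 40370001 by 33 contacts.

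Across the centromere, the window at 45 to 50 Mb held 8 T30 loops. SNAI2 encodes Slug, a repressor of epithelial genes that drives mesenchymal programmes and is among the genes known to respond to progestins in breast cells. Its only bin with a loop, at 48920001, was joined to bins at 48305001 and 48320001 by 11 and 12 contacts over 615 and 600 kb. Those partners hold no protein-coding gene, and SNAI2 had 0 loops in T0. PRKDC, the catalytic kinase of DNA end joining, had 1 internal loop of 19 contacts, and SPIDR, a scaffold of homologous recombination, had 2 of 11 and 9.

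On chromosome 17, the window at 25 to 30 Mb opens inside the gene-free stretch, which runs from 22705637 to 26981691. The 2 strongest loops of all member windows lay wholly inside it. The bin at 25920001 was joined to that at 26590001 by 47 contacts over 670 kb and to that at 26600001 by 45 contacts over 680 kb. The same bin had 3 further partners, with 14, 16 and 8 contacts, the last across 1735 kb into the window below. Other member loops that spanned 500 kb or more had at most 16 contacts. No repeat table was used, and whether reads in this or other gene-free stretches were placed correctly was not tested.

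The genes beyond the stretch carried most of the chromosome 17 loops. KSR1, a scaffold of the RAF, MEK and ERK kinases, had 8 T30 loops with 107 contacts, and SEZ6, a neuronal membrane protein, had 8 with 100 contacts. MYO18A, an unconventional myosin, had 5 and NOS2, the inducible nitric oxide synthase, had 4. SLC13A2, a citrate and dicarboxylate transporter, was joined to FOXN1, the transcription factor of thymic epithelium, by 33 contacts over 40 kb. The bin shared by TLCD1 and NEK8 was joined to that of TRAF4, a signalling adaptor, by 31 contacts over 20 kb. None of these genes had a T0 loop.

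CORO6 encodes a coronin, of a family that binds actin. The bin with its printed promoter had 3 partners and 73 contacts, the most among member bins outside chromosome 8 that hold a start site. It was joined to ANKRD13B by 28 contacts, to the bin of TP53I13 and GIT1 by 25 and to SSH2, a cofilin phosphatase, by 20. The promoter of WSB1, part of a ubiquitin ligase, lay in a bin with 2 partners, joined by 15 and 13 contacts, and the gene's strongest loop, 20 contacts, started in the next bin.

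On chromosome 10, 21 T30 loops followed the stretch. RET, the receptor tyrosine kinase for the GDNF family and an oestrogen-responsive gene of luminal breast cancer, had 3 of them. All came from the bin at 42865001, which overlaps no protein-coding gene, to bins at 43075001, 43095001 and 43105001, with 14, 15 and 16 contacts. The bin at 43075001 holds the printed promoter. RASGEF1A, an exchange factor for RAS proteins, had 2 loops of 17 and 14 contacts, and BMS1, a ribosome biogenesis factor, 1 internal loop of 22. CXCL12, the chemokine ligand of CXCR4, had 1 loop of 12 contacts over 475 kb.

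On chromosome 20, ACSS1, a mitochondrial acetyl-CoA synthetase, had 5 of the window's 11 loops. Its bin at 25015001 was joined to 4 others with 35, 23, 26 and 10 contacts, and the partner with 26 holds VSX1, a homeobox gene. ABHD12, a lysophospholipid lipase, had 3 loops of 10 to 14 contacts. Beyond the centromere, the window above held 57 loops in T30 and 14 in T0.

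Chromosome 7 brought EGFR, the receptor of epidermal growth factor, a target of progestins in breast cells. The bin with its promoter, at 55015001, was joined to 55045001 inside the gene by 19 contacts and to 55250001 beyond its end by 10. A further 2 T30 loops reached EGFR from starts in the window below, at 54980001 with 14 contacts and 54965001 with 10. In all, EGFR had 4 T30 loops and 0 in T0. VOPP1, downstream of EGFR, had 1 internal loop of 15 contacts, and SEPTIN14, a septin, 1 of 14.

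On chromosome 16, all 6 loops of the window shared the bin at 48165001 in ABCC11, an ATP-driven exporter known for earwax type and drug efflux. The nearest partners were in ABCC12, its neighbouring paralogue, with 14 contacts over 40 kb, and within ABCC11 itself with 13 over 70 kb. The other 4 partners lay 1015 to 1215 kb away, with 8 to 12 contacts, 1 of them in NETO2, an auxiliary subunit of kainate receptors. ABCC11 and ABCC12 are similar in sequence, and whether reads were placed between them correctly was not tested.

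**Figure D3:**
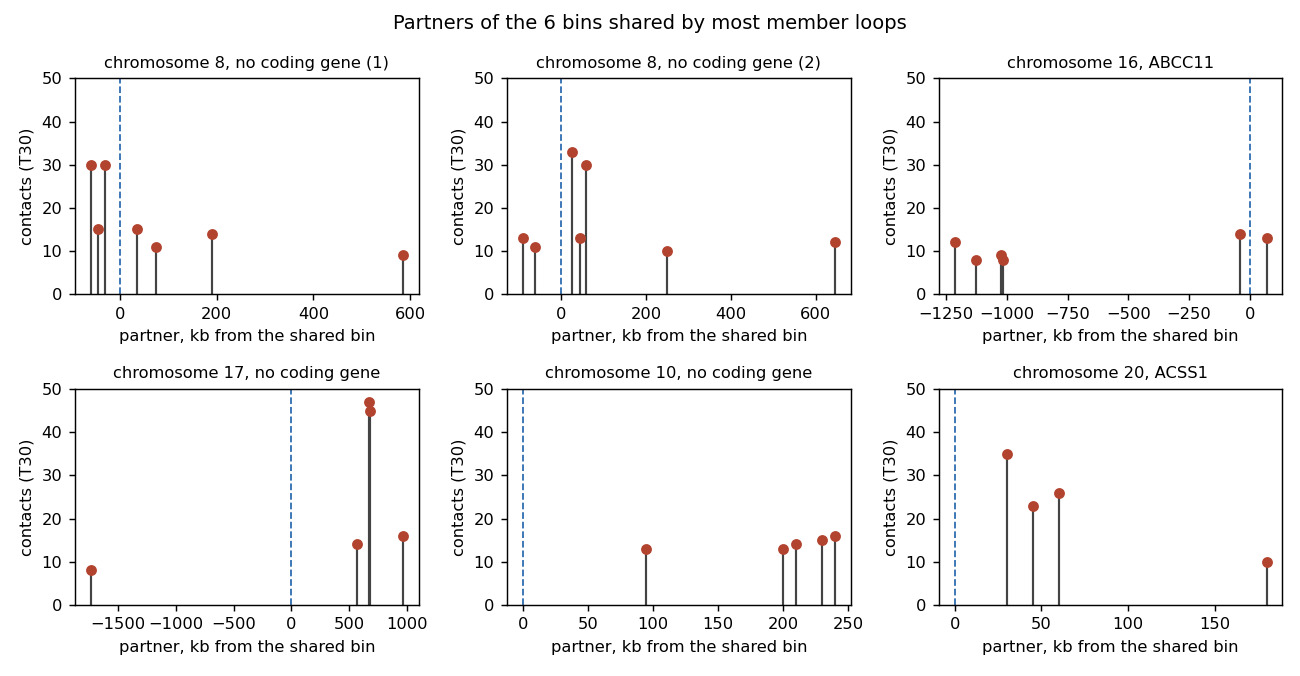
Contacts of each T30 loop (vertical axis, read pairs) against the distance of the partner from the shared bin (horizontal axis, kb) for the 6 bins shared by most member loops; the dashed line is the shared bin. The chromosome 17 bin has 47 and 45 contacts at 670 and 680 kb, and 4 of the 6 ABCC11 partners lie 1015 to 1215 kb away. The placing of reads in these bins was not tested.

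Of the 403 bins of member loops, 24 (5.96%, exact 95% interval 3.85 to 8.73%) had 3 or more partners, against 8.13% of the bins of other T30 loops (7.67 to 8.61%). With 5 or more partners there were 5 (1.24%) among member bins and 296 (2.24%) among the others. The intervals overlap in both cases and, as all intervals here, cover counting error only.

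The other windows near a stretch held 3 to 12 loops. On chromosome 12, at 30 to 35 Mb, FGD4, an exchange factor for CDC42 mutated in Charcot-Marie-Tooth disease, had 3 of the 12 T30 loops. DENND5B, which acts on RAB GTPases, and YARS2, the mitochondrial tyrosyl-tRNA synthetase, had 2 each. The strongest loop there, 27 contacts between 34365001 and 34385001, lay inside the gene-free stretch. On chromosome 18, IMPA2, an inositol monophosphatase, and LDLRAD4, a negative regulator of TGF-β signalling, had 2 loops of 9 to 11 contacts each. CABLES1, which binds CDK5, had 1 of 16 contacts.

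On chromosome X, at 50 to 55 Mb, ITIH6 had 2 loops of 17 and 9 contacts to 1 partner bin. KDM5C, an X-linked histone H3 lysine 4 demethylase, was joined to IQSEC2, a synaptic exchange factor, by 14 contacts. On chromosome 6, all 3 loops at 55 to 60 Mb touched DST, the dystonin linker of the cytoskeleton, with 9 or 10 contacts. SPECC1 and KCNJ12, a potassium channel, had 1 loop each on the lower side of chromosome 17, and ALG10B and CPNE8 1 each on chromosome 12.

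The 15 windows far from a stretch held 3 to 6 loops each, 56 in sum. Their neighbours were also thinly filled, with a median of 2 loops in T30 and 2 in T0, against 7 in T30 and 5 in T0 for the neighbours of the 14 windows near a stretch. Of the 56 loops, 1 had 20 contacts or more (1.79%, 0.0452 to 9.55%). In other windows far from a stretch the share was 12.7% (12.0 to 13.4%). In the 15 member windows the listed 0 in T0 stood beside few loops in T30 and, by the median, few on either side. Some neighbours held more, such as 16 T30 and 4 T0 loops below the chromosome 9 window.

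CD9 headed the chromosome 12 window at 5 to 10 Mb with 4 of 6 loops. It encodes a tetraspanin, a membrane organiser of exosomes and adhesion complexes. The bin with its promoter was joined to one at 6275001 by 19 contacts and to one within the gene by 11. Another loop, of 9 contacts, ran from CD9 to VWF, the clotting factor carrier. CD9 had 0 loops in T0.

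The chromosome 11 window at 100 to 105 Mb holds PGR, the gene of the receptor that was precipitated. No bin of a loop in either list overlapped PGR, which spans 101029624 to 101129813. The nearest T30 loop bin began at 101305001, 175 kb past the upper gene end, and the nearest T0 bin was 4685 kb away. The rule allows no T0 loop to start in this window, so the contrast of these distances is largely set by it. The window had 6 loops, and 4 of them joined bins between 101305001 and 101445000, with 12 to 17 contacts. TMEM123, a cell surface mucin-like receptor, had 1 loop of 10 contacts.

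ESR1, the oestrogen receptor gene, is in the chromosome 6 window at 150 to 155 Mb and likewise had no loop in either list. The nearest T30 bin lay 327 kb from it, at a start site inside AKAP12, a scaffold for protein kinase A. The nearest T0 bin lay 2232 kb away, outside the window, where the rule allows no T0 loop to start. AKAP12 was joined to MTHFD1L, a mitochondrial folate enzyme, by 11 and 9 contacts over 315 and 305 kb.

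On chromosome X, a bin at 39920001 was joined to BCOR at 2 bins, a corepressor of BCL6, with 12 contacts each. BCOR had 7 T30 loops in all, the others starting in the window above, and 0 in T0. On chromosome 4, SCOC, a Golgi protein, had 4 loops and shared 1 of them, 11 contacts over 290 kb, with MAML3, a coactivator of Notch. BMPR1B, a receptor of bone morphogenetic proteins, and PDLIM5 had 1 loop of 8 contacts each.

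CTBP2, a corepressor, had 2 loops of 12 and 11 contacts on chromosome 10, both from the bin with the printed promoter. FREM2, a basement membrane protein, likewise had 2, of 10 contacts each, on chromosome 13. On chromosome 7, the bin with the start sites of CDK5, a cyclin-dependent kinase active in neurons, and SLC4A2, an anion exchanger, was joined to FASTK by 15 contacts and to AGAP3 by 10. KCNH2, the hERG potassium channel, was joined to NOS3, the endothelial nitric oxide synthase, by 11.

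DNAJB4, a heat shock cochaperone, was joined on chromosome 1 to FUBP1, a regulator of MYC, by 13 contacts. ARHGEF10 had 3 loops on the lower tip of chromosome 8, ASAP2 and RNF144A 1 each on chromosome 2, and BNC2 and SLC24A2 1 each on chromosome 9. UBE3D had 2 loops on chromosome 6, 1 of them joining it and DOP1A to ME1, malic enzyme. The chromosome 3 window holds 2 protein-coding genes and had no loop on either, its 3 loops lying in or beside the noncoding gene LINC00971 with 13, 16 and 22 contacts.

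In all, 125 protein-coding genes were overlapped by a bin of a member loop, in 28 of the 29 windows. Of these, 71 had 1 loop, 54 had 2 or more and 10 had 5 or more. None of the 125 had a loop in T0, at either end. This is largely set by the rule, which allows no T0 loop to start in these windows, and nothing is read from it. Counting every T30 loop, 126 of the 660 protein-coding genes located in member windows had one (19.1%, exact 95% interval 16.2 to 22.3%), against 4568 of 19314 in other windows (23.7%, 23.1 to 24.3%). Pseudogenes made up 35.6% of the annotated genes of member windows and 27.4% in other windows. Near a stretch the share was 42.1% in member windows and 38.8% in others.

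Lists of genes gave few members. Of 32 progestin targets, 3 lie in member windows (EGFR, PGR and SNAI2) and 2 of these had a T30 loop, while 24 of 29 did in other windows. Of 22 luminal genes, ESR1 and PGR lie there, neither with a loop, and 13 of 20 elsewhere had one. Of a list of 20 basal or mesenchymal genes, EGFR and SNAI2 lie there, both with a loop, and 7 of 18 elsewhere had one. Of a list of 20 growth factor receptors, ligands and kinases, EGFR alone lies there, and 10 of 19 elsewhere had a loop. Of 17 zinc finger genes in member windows, 2 had a loop (ZNF337 and ZNF487), against 58 of 500 elsewhere. Of 4 members of duplicated families POTEA had one, against 8 of 281 elsewhere. The olfactory receptor gene OR4F21 had none, and 4 of 391 elsewhere had one.

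The median strength was 12 contacts (95% interval 11 to 13) in member loops and 13 (12 to 13) in the others. Loops in windows near a stretch had a median of 13 (12 to 13), and those farther away 10 (10 to 11). The share with a q-value under 0.01 was 54.1% in member loops and 57.4% in the others, and 39.3% (26.5 to 53.2%) in the far windows. Without the 2 windows with most loops, the member median was 11 (11 to 12).

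The median span was 80 kb in member loops (65 to 95 kb) and 80 kb in the others, and 280 kb in the 29 T0 loops of the mirrored windows. Spans of 500 kb or more made up 20 of 259 member loops (7.72%, 4.78 to 11.7%) and 3.06% of the others (2.72 to 3.42%). Of these 20, 18 lay in windows near a stretch, 8.87% of the member loops there (5.34 to 13.7%). In other windows near a stretch the share was 5.17% (3.30 to 7.65%), and these intervals overlap. Spans of 1000 kb or more made up 6 member loops (2.32%, 0.855 to 4.97%) and 0.279% of the others (0.182 to 0.408%). All 6 were in windows near a stretch, where other windows had 10 such loops of 445 (2.25%, 1.08 to 4.09%). Loops that share a bin are not independent, and 4 of the 6 share the ABCC11 bin.

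**Figure D4:**
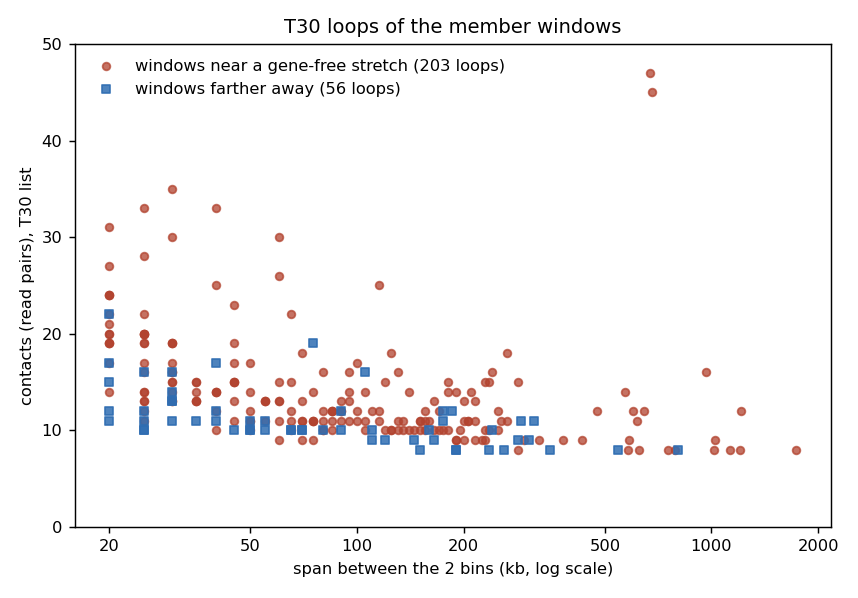
Contacts (read pairs) against span (kb, log scale) of the 259 T30 loops in the member windows, by whether the window lies within 4 Mb of a gene-free stretch. Most loops with many contacts are short, and the exceptions at 670 and 680 kb with 47 and 45 contacts lie inside the stretch of chromosome 17. The placing of reads in that stretch was not tested.

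Pooled over all windows, ends in genes were less frequent in member loops than in the other T30 loops. At least 1 end lay in a protein-coding gene in 69.5% of member loops (63.5 to 75.05%) and 79.6% of the others (78.8 to 80.5%). Neither end met any RefSeq gene in 16.6% (12.3 to 21.7%) and 8.43% (7.87 to 9.01%). Without the 2 windows with most loops, the member share was 13.8% (8.63 to 20.5%), an interval that overlaps that of the others. A start site lay in a bin of 26.9% of member loops (20.6 to 34.0%) and 23.7% of the others (22.8 to 24.6%), chromosome 8 left out of both. Near a stretch, an end in a protein-coding gene was found for 68.5% of member loops (61.6 to 74.8%) and 76.6% of others (72.4 to 80.5%). Farther away it was found for 73.2% of member loops (59.7 to 84.2%) and 79.8% of others (78.9 to 80.6%). The intervals for this share overlap near a stretch and also farther away. No test over libraries was possible for these shares.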

How the data were processed

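HiChIP loop lists of 2 libraries, T30 and T0, 1 per condition, were used; the other 21 samples of the series are not analysed here. Per the file headers, the authors deposited for each loop 2 bins of 5 kb, the contact count, a p-value and a q-value from a bias-corrected loop model. The submitters' processing notes name Bowtie and hg38 (GRCh38) without a role; the role of each tool, the loop caller's settings, the filters and the read depth are unknown (not given in the sources used here). Per the file headers, the authors merged neighbouring contacts and gave the fraction of strong connections in each merged cluster, which no result uses. The count of contacts is of read pairs, which are not independent molecules, so intervals cover counting error only.

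Positions were counted from 0 in the deposited lists and are given from 1. Loops were counted in 5 Mb windows by the lower end, in Python 3.11.15 with pandas 2.3.3, numpy 2.4.6, scipy 1.17.1 and matplotlib 3.10.9. Genes and promoters came from RefSeq on GRCh38.p14 (59098 genes, 19974 protein-coding), and 95 of the 125 genes at member loop ends were found in the promoter table. A bin holds a gene when they overlap, without regard to strand, so overlapping and antisense genes share a bin. Promoters of chromosome 8 are not used here. Where intervals are given, shares have exact Clopper-Pearson intervals and medians order-statistic intervals, at 95%. The counting steps were tested on simulated lists. The members and gene lists were chosen with earlier results of these data known, and the gene-free stretches and the 4 Mb zone after the lists had been seen.

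Genes were named by a rule: per window at most the 3 with most member loops, listed genes in a member window, and genes at the 10 loops with most contacts. GPAT4, KAT6A, ANK1, NOS2, WSB1, TP53I13, GIT1, SSH2, CXCL12, VWF, AGAP3, KCNH2, NOS3, OR4F21, POTEA, ZNF337, ZNF487 and the gene LINC00971 were added after their values were seen. The result of 1 gene list is not reported here.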

Additional observations from a re-analysis of the deposited data

Results flagged for a closer look

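Outside chromosomes 1 to 22 and X, and so outside the windows, the T30 list held 4 loops and the T0 list 0. They lie on unplaced or unlocalised scaffolds of the assembly, 3 of them on scaffolds assigned to no chromosome and 1 on a scaffold of chromosome 22. Their contacts were 12, 13, 13 and 31 and their spans 20 or 25 kb. They were picked out because they lie in a portion of the T30 list that no comparison uses. With 1 library per condition no group was large enough to look for a sample apart from the others, and why T0 lists none was not tested.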

How the results depend on the processing

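Of 34 alternative values, 19 stayed within 1.5 times of the reported count, or for a median or share within its interval, and 15 did not. The 29 windows became 62 with windows of 2 Mb, 9 with 10 Mb, 12 with 5 or more T30 loops required, and 51 with up to 1 T0 loop allowed. They became 17, with 170 loops, when the T30 list was cut to the length of the T0 list. With q under 0.01 in both lists there were 18 windows with 168 loops, of which 10 were among the 29. Windows shifted by 2.5 Mb gave 30, placing loops by the upper end 26, and 10 or more contacts 24. Under 6 of these settings (upper end, either end, q, contacts, span of 20 kb or more, equal length) 9 windows were members throughout, 7 of them near a gene-free stretch. The median contacts of member loops were 13.5 with q under 0.01. Genes at member loop ends numbered 62 when a bin had to hold a gene end, and the share of loops with an end in a gene was 76.4% with genes widened by 10 kb, against 88.1% for other T30 loops. Other alternatives were chosen after the data were seen. Leaving out windows within 4 Mb of a stretch left 15 windows, and loops of 50 kb or more in both lists gave 23 windows with 173 loops. The zone within 4 Mb held 366 T30 and 35 T0 loops, counting those in or across a stretch. It held 220 and 21 with q under 0.01, and 452 in T30 and 96 in T0 when stretches free of protein-coding genes only were used. Beyond the settings' own construction, with fewer loops or other windows, the cause of these shifts was not tested. No paired analysis was possible because each condition has 1 loop list, and for the same reason no library could be left out. In many windows only 3 to 6 listed T30 loops stand against 0, and the lists' unknown read depth does not tell an absent contact from one below the listing threshold.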
